A study of Mus musculus with 16 samples.

Results

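The comparison asked whether tamoxifen changed the quadriceps transcriptome differently in mice that lack *Mtm1* than in wild type mice. For each gene the effect of the drug was taken in each genotype as a log2 difference, *Mtm1* KO + TAM minus *Mtm1* KO and WT + TAM minus WT, and the second was subtracted from the first. This difference of effects is called the interaction below, and a positive value means that the gene was higher, or fell less, under tamoxifen in *Mtm1* KO than in WT. All genes entered, and 14 of the 16 libraries were used, 3 from WT (replicates 2 to 4), 4 from WT + TAM (5 to 8), 3 from *Mtm1* KO (9 to 11) and 4 from *Mtm1* KO + TAM (13 to 16).

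All mice were C57BL/6 and 36 days old when the muscle was taken. The *Mtm1* KO mice, written mtm1 -/- in the labels, carry a deletion of exon 4 made by homologous recombination, so every tissue lacks the gene. Treated mice ate chow with tamoxifen citrate at 40 mg/kg per day from day 21, and untreated mice of both genotypes had none of the drug. Libraries were made from total RNA with a TruSeq kit, and each holds about 25702600 to 29847200 reads counted on genes. *Mtm1* (chromosome X, 71210767 to 71315691, plus strand in GRCm38) was at 13.8 to 14.7 CPM (counts scaled to a common library size with TMM factors) in WT, 12.3 to 18.7 in WT + TAM, 2.09 to 2.52 in *Mtm1* KO and 1.79 to 3.06 in *Mtm1* KO + TAM. The groups of the 2 genotypes did not overlap, in the direction of the labels. The library labelled WT replicate 1, 1 of the 2 that were left out, held 3.69 CPM of *Mtm1*, close to the *Mtm1* KO libraries. The muscle markers *Ckm*, *Acta1*, *Mylpf* and *Myh4* were abundant in every library, with *Ckm* at 13177 CPM or above.

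WT + TAM replicates 7 and 8 stood apart from all other pairs because they were nearly alike. Over 599 genes with at least 10000 counts in the pair, their levels differed by a median of 0.035 on the log2 scale, against 0.097 to 0.31 for the other 17 pairs within a group. Their counts still differed by more than counting alone gives, with a per-gene chi-square whose median was 1.46 where counting error gives 0.455 and other pairs within a group gave 3.37 to 6.50. They were kept as 2 libraries, although a spread above counting error does not tell whether they come from separate mice. The counts of calls and some of the results that rest on WT + TAM are also given with the pair summed into 1. The study's methods state that each replicate is a separate mouse, which the labels do not give, and p-values measure the spread between these libraries.

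Tamoxifen binds the estrogen receptors and acts as an agonist or an antagonist depending on the tissue, and it also binds enzymes of sterol metabolism. MTM1 is a phosphatase that removes the 3-phosphate of phosphoinositides, and its loss disturbs the triads, where the transverse tubules meet the sarcoplasmic reticulum. Muscle reads steroid, thyroid, glucocorticoid and clock signals through nuclear receptors, so lists of their targets were used beside lists for stress, metabolism, muscle structure and other cell types.

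With edgeR's quasi-likelihood test over 15556 genes, 0 genes (0%) had an interaction at an adjusted p of at most 0.05, and the lowest adjusted p was 0.270. At an unadjusted p of at most 0.05 there were 664 genes, or 4.27%, 324 above 0 (2.08%) and 340 below (2.19%), where 777.8 would be counted if no gene differed. DESeq2 on the same counts called 22 genes, all of them among the 25 with the lowest p in edgeR and all in the same direction. limma on RPKM values called 1. The median interaction of all genes was 0.0094. The 95% interval of a gene reached a median of 0.61 to either side on the log2 scale. That interval is not adjusted for the number of genes tested. A call at the adjusted threshold needed a larger difference for a typical gene, and *Amd1*, with an interaction of 1.77, was not called in edgeR. The 0 calls thus do not exclude differences above 0.61. The values below are therefore described by their size, interval and unadjusted p, and no gene is said to differ by genotype.

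Within each genotype the same fit called 146 genes (0.939%) for tamoxifen in WT, 73 higher and 73 lower, and 5 genes (0.0321%), all higher, in *Mtm1* KO. The count in WT was 97 with WT + TAM replicates 7 and 8 summed, 63 without WT replicate 4 and 74 without WT + TAM replicate 5, and DESeq2 called 343. The count in *Mtm1* KO was 3 without *Mtm1* KO replicate 10, 10 without WT replicate 3, 9 without *Mtm1* KO + TAM replicate 15 and 8 without *Mtm1* KO replicate 11, and DESeq2 called 115. These counts do not test the difference between genotypes. Of the 146 genes called in WT, 137 (93.8%) had the same sign in *Mtm1* KO, against 60.6% of all genes tested. In the same direction, 81 of the 146 (55.5%) had an unadjusted p of at most 0.05 in *Mtm1* KO, where 7.6% of all genes had one in either direction. The effect in *Mtm1* KO was the smaller one for 142 of the 146, but these genes were chosen by their size in WT, so nothing is read from that count. Over all genes the effects in the 2 genotypes had a Pearson correlation of 0.33 and a Spearman correlation of 0.29, across genes that are not independent and share 1 normalization.

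**Figure D1:**
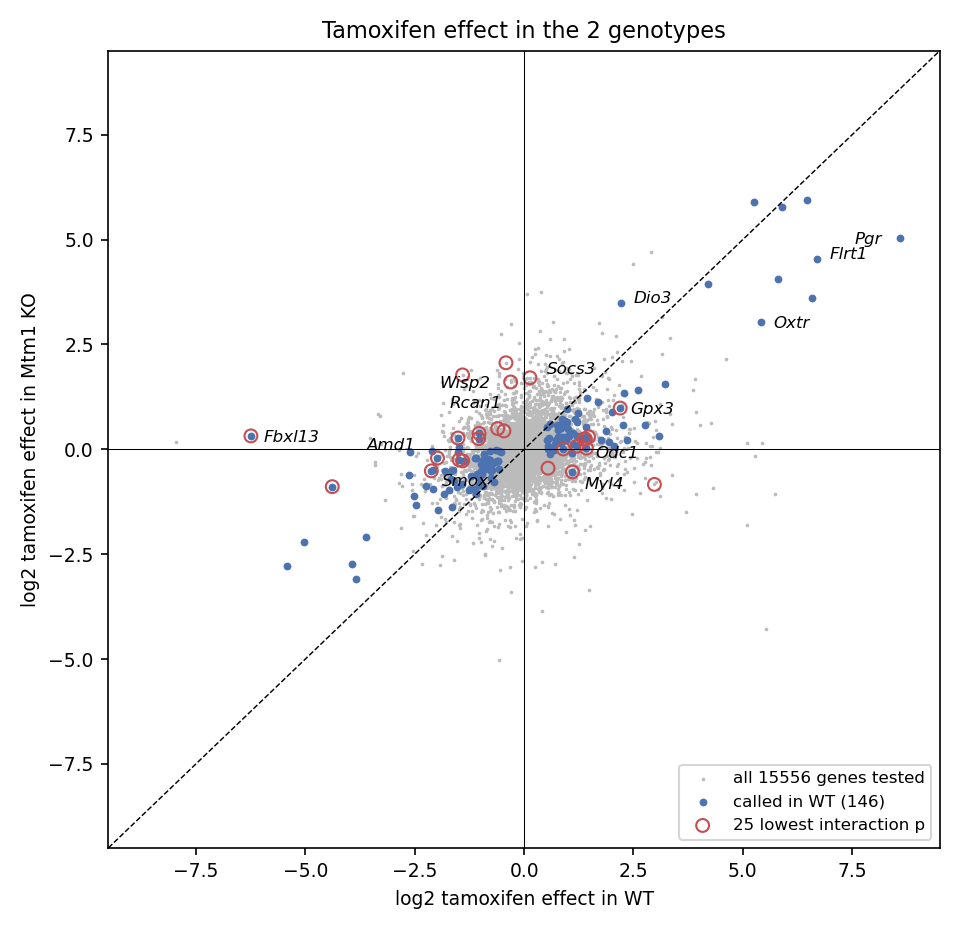
Log2 tamoxifen effect in WT (x axis) against that in *Mtm1* KO (y axis), one point per gene tested. Blue points are the 146 genes called in WT, red rings are the 25 genes with the lowest interaction p, and the dashed line marks equal effects. Most blue points lie on the same side of 0 in both genotypes, and 21 of the 25 ringed genes have their larger effect in WT. The ringed genes were chosen by an interaction that includes the effect in WT.

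The polyamine genes held the 2 lowest interaction p-values. Polyamines are small cations made from ornithine by ODC1, extended to spermidine and spermine with groups supplied by S-adenosylmethionine decarboxylase (AMD1), and oxidized back by spermine oxidase (SMOX). In WT muscle, tamoxifen lowered *Amd1* and *Smox* and raised *Odc1*, while in *Mtm1* KO muscle these 3 genes had small effects that did not pass the test.

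*Amd1* (chromosome 10, 40287458 to 40302186, minus strand) was at 301, 512 and 479 CPM in WT and 92.5, 129, 106 and 109.5 in WT + TAM. In *Mtm1* KO it was at 56.2, 65.0 and 70.8 CPM, and in *Mtm1* KO + TAM at 50.2, 42.7, 48.3 and 80.5. The WT libraries were thus all above the treated ones, whereas untreated *Mtm1* KO libraries were already below all of WT + TAM and overlapped with their treated counterparts. The effect was -1.98 in WT (edgeR adjusted p = 0.000317) and -0.21 in *Mtm1* KO (adjusted p = 0.895). The interaction was 1.77 (95% interval 1.13 to 2.41), with an adjusted p of 0.270 that ran from 0.000202 in DESeq2 to 0.623 over all alternatives. With WT + TAM 7 and 8 summed it was 1.76 (edgeR adjusted p = 0.370).

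Reads of *Amd1* are hard to place, since 76.7% of its 50-base stretches occur also in the intronless copy *Amd2* on the same chromosome. *Amd2* itself was low, at 1.91 to 3.32 CPM in WT, 0.341 to 0.734 in WT + TAM, 0.498 to 0.678 in *Mtm1* KO and 0.152 to 0.439 in *Mtm1* KO + TAM, and it too fell in WT (-2.52, adjusted p = 0.00593). Summed over *Amd1*, *Amd2* and 3 pseudogenes, the level was 305.4 to 519 CPM in WT, 93.4 to 129.9 in WT + TAM, 57.1 to 71.97 in *Mtm1* KO and 43.0 to 81.2 in *Mtm1* KO + TAM. The groups kept the order of *Amd1* alone.

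*Smox* (chromosome 2, 131491496 to 131525922, plus strand) had 272, 318 and 305 CPM in WT and 129.8, 139, 91.2 and 90.7 in WT + TAM, with no overlap. It had 59.8, 59.5 and 80.4 CPM in *Mtm1* KO and 60.0, 53.6, 45.1 and 61.3 in *Mtm1* KO + TAM, which overlapped and lay below every WT + TAM library. The effects were -1.41 in WT (adjusted p = 0.000632) and -0.28 in *Mtm1* KO (adjusted p = 0.787), and the interaction was 1.13 (95% interval 0.62 to 1.64) with an adjusted p of 0.337.

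*Odc1* (chromosome 12, 17544794 to 17551505, plus strand) went the other way. WT libraries had 128, 157 and 117 CPM and WT + TAM libraries 325, 313, 394 and 379, again without overlap. *Mtm1* KO libraries had 149, 167 and 207 CPM and *Mtm1* KO + TAM libraries 200.03, 173, 236 and 220.4, which overlapped. Its effects were 1.40 (adjusted p = 0.00037) and 0.25 (adjusted p = 0.781), giving an interaction of -1.15 (95% interval -1.60 to -0.70) and an adjusted p of 0.270. Pseudogenes of *Odc1* share 24.3% of its 50-base stretches.

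Of 12 polyamine genes tested, 3 had a positive and 1 a negative interaction at an unadjusted p of at most 0.05 (*Amd1*, *Smox* and *Amd2* against *Odc1*), beside 4.27% of all genes. *Amd2* has 85.7% of its 50-base stretches in common with *Amd1*. The count may therefore hold the same reads under both names. The other 8 lay between -0.21 (*Paox*, polyamine oxidase) and 0.50 (*Azin1*, antizyme inhibitor). Spermidine synthase *Srm* was at 0.03 and spermine synthase *Sms* at 0.29. The list median was 0.17. The calls of *Amd1*, *Smox* and *Odc1* in WT held under every alternative tried. They are among 12 of 27 such calls in WT that did, and the other 15 were lost under at least 1, *Gstm2* in 21, *Myl4* in 19 and *Per1* in 17 of 29 settings.

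**Figure D2:**
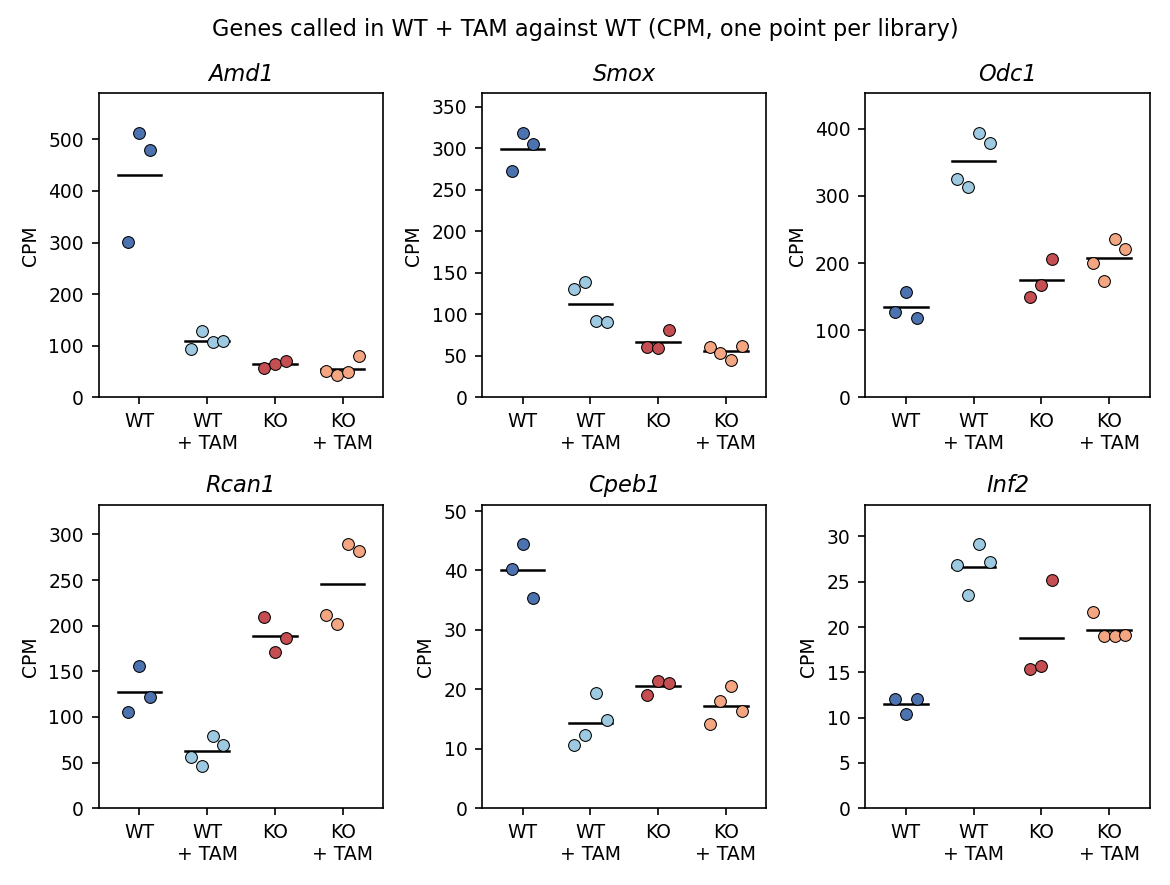
CPM of 6 genes in the 14 libraries, with one point per library, the group mean as a line and axes from 0. *Amd1*, *Smox*, *Cpeb1* and *Rcan1* are lower and *Odc1* and *Inf2* higher in all WT + TAM libraries than in any WT library, and the *Mtm1* KO groups lie closer together.

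Several other genes among the 25 with the lowest interaction p also had their larger effect in WT. Of these 25, 17 were called in WT and 1 in *Mtm1* KO, beside 0.939% and 0.0321% of all genes. The larger effect was in WT for 21, and the interaction was positive for 15 and negative for 10. These genes were chosen by an interaction that includes the effect in WT, so nothing is read from these counts. *Rcan1*, an inhibitor of the calcium-activated phosphatase calcineurin, had 105, 156 and 121 CPM in WT and 56.3, 45.9, 79.4 and 68.9 in WT + TAM. In *Mtm1* KO it had 209.8, 171 and 186 and in *Mtm1* KO + TAM 211, 202, 289 and 282. It fell in WT (-1.03, adjusted p = 0.0163), had 0.38 in *Mtm1* KO (adjusted p = 0.693) and an interaction of 1.41 (95% interval 0.83 to 1.98). The call in WT was lost without WT replicate 3 (adjusted p = 0.0801), WT replicate 4 or WT + TAM replicate 5. Treated libraries of the 2 genotypes were thus further apart than untreated ones.

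*Cpeb1*, which binds the polyadenylation element of mRNA and controls its translation, was at 35.4 to 44.4 CPM in WT and 10.6 to 19.4 in WT + TAM and fell (-1.48, adjusted p = 0.000632). Its values in *Mtm1* KO were 19.1 to 21.5 CPM without and 14.2 to 20.6 with the drug, and the interaction was 1.24 (95% interval 0.70 to 1.77). *Exoc3l4* was at 10.3 to 18.5 CPM in WT and 2.57 to 3.75 in WT + TAM (-2.12, adjusted p = 0.000249) and had 7.37 to 9.73 and 4.84 to 6.43 CPM in the *Mtm1* KO groups, with an interaction of 1.61 (95% interval 0.95 to 2.26). *Tiam1*, an exchange factor for the GTPase RAC1, and *Casp12*, a caspase of the endoplasmic reticulum, also fell in WT (-1.51 and -1.04) and had interactions of 1.78 and 1.29. The call of *Tiam1* was lost in 4 of 29 settings, among them without WT replicate 3 (adjusted p = 0.0597). That of *Casp12* was lost in 7, among them without WT replicate 3 (adjusted p = 0.0905) and without WT + TAM replicates 5, 6 or 7.

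Genes that rose in WT alone in the test included *Inf2*, a formin that assembles actin, at 10.4 to 12.1 CPM in WT and 23.5 to 29.2 in WT + TAM (1.21, adjusted p = 0.00155). In the *Mtm1* KO groups it had 15.4 to 25.2 and 19.03 to 21.7 CPM, the highest in replicate 11, and an interaction of -1.13 (95% interval -1.61 to -0.66). *Coq10b*, which binds coenzyme Q in mitochondria, rose in WT, with 20.4 to 27.1 CPM without and 51.0 to 68.7 with the drug (1.37, adjusted p = 0.00155), against 21.9 to 39.9 and 32.2 to 38.7 in *Mtm1* KO, with an interaction of -1.13 (95% interval -1.66 to -0.60). *Ccdc141* and the RAS-like GTPase gene *Rasl11b* rose by 1.43 and 1.47 in WT and had interactions of -1.40 and -1.18. Their calls in WT were lost in 1 and 2 of 29 settings. The transcription factor *Cebpb* rose in WT, with 67.9 to 82.0 CPM without and 126 to 178 with the drug (0.90, adjusted p = 0.0142) and had 80.5 to 114 and 77.8 to 108 CPM in the *Mtm1* KO groups, with an interaction of -0.89 (95% interval -1.36 to -0.41). The call of *Cebpb* in WT was lost in 4 of 29 settings, among them without WT replicate 4 (adjusted p = 0.0955). The highest adjusted p over all settings was 0.2.

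Some of the 25 genes were low. *Fbxl13*, an F-box gene, had 25 counts over the 3 WT libraries and 0 over the 4 WT + TAM libraries, which makes it at least 10.4-fold lower under the drug when 3 counts over the group are taken as the floor. It had 107 counts over *Mtm1* KO and 189 over *Mtm1* KO + TAM, in libraries of like depth. The call of *Fbxl13* in WT (edgeR adjusted p = 0.0163) was lost in 5 of 28 settings. Its interaction, 6.56 in the main fit, ran from 0.19 to 6.79 over the alternatives. *1700001O22Rik* had 417 counts in WT, 25 in WT + TAM, 11 in *Mtm1* KO and 8 in *Mtm1* KO + TAM, and its interaction rests on groups that are near the floor in *Mtm1* KO. *D630024D03Rik*, a long noncoding RNA, had 18, 177, 199 and 153 counts in the same order. *Trpm1*, a cation channel gene, stayed at or under 1.42 CPM in all libraries.

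*Myl4*, the embryonic and atrial light chain of myosin, had 6.11, 3.87 and 6.33 CPM in WT and 14.3, 9.38, 11.5 and 11.8 in WT + TAM. It had 63.6, 68.7 and 76.7 CPM in *Mtm1* KO and 41.4, 72.1, 33.7 and 44.5 in *Mtm1* KO + TAM. Thus 3 of 4 treated *Mtm1* KO libraries were below all untreated ones, while treated replicate 14, at 72.1, lay within the untreated range. The effects were 1.11 in WT (adjusted p = 0.0425, or 0.0835 with WT + TAM 7 and 8 summed) and -0.54 in *Mtm1* KO (adjusted p = 0.560), with an interaction of -1.64 (95% interval -2.34 to -0.95). The call in WT was lost in 19 of 29 settings, with an adjusted p of up to 0.170 (without WT replicate 3) when a library was left out. Without *Mtm1* KO + TAM replicate 14 the interaction was -1.91 and passed the edgeR test with an adjusted p of 0.0456, the sole interaction call made by leaving out any library, while its adjusted p over all alternatives ran from 0.00433 to 1.00.

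Some genes had their larger effect in *Mtm1* KO. *Socs3* (chromosome 11, 117966079 to 117970047, minus strand), the feedback inhibitor of JAK and STAT signaling from cytokine receptors, was the 1 gene of the 25 called in *Mtm1* KO. It had 5.17, 8.73 and 6.33 CPM in WT and 8.29, 5.95, 8.60 and 6.74 in WT + TAM, which overlapped. It had 8.47, 6.38 and 5.39 CPM in *Mtm1* KO and 19.9, 16.5, 31.8 and 19.8 in *Mtm1* KO + TAM, where every treated library was above every untreated one. The effects were 0.13 in WT (adjusted p = 0.896) and 1.71 in *Mtm1* KO (adjusted p = 0.0174), and the interaction was 1.57 (95% interval 0.84 to 2.30) with an adjusted p of 0.337. The call in *Mtm1* KO was lost without *Mtm1* KO replicate 10 (adjusted p = 0.110), without *Mtm1* KO replicate 11 (0.0764) and in 4 other settings.

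*Wisp2*, a secreted matricellular protein induced by estrogen in breast cells, had 3.64, 5.72 and 5.58 CPM in WT, 4.10, 3.43, 4.88 and 3.67 in WT + TAM, 3.55, 2.69 and 2.10 in *Mtm1* KO and 11.8, 4.90, 9.54 and 7.63 in *Mtm1* KO + TAM. All treated *Mtm1* KO libraries were above the untreated ones, with an effect of 1.60 that missed the threshold (adjusted p = 0.0549), against -0.31 in WT (adjusted p = 0.735). The interaction was 1.91 (95% interval 1.07 to 2.75). *H19*, an imprinted long noncoding RNA, had 3156 to 4083 CPM in WT and 2358 to 2542 in WT + TAM, and 2327 to 3586 in *Mtm1* KO and 3408 to 5281 in *Mtm1* KO + TAM. Its effects of -0.60 and 0.49 did not pass the test in either genotype (adjusted p = 0.143 and 0.470), and their opposite signs gave an interaction of 1.10 (95% interval 0.58 to 1.61). All 21 of the 50-base stretches of *Gm27786*, a small RNA also among the 25 genes (interaction 2.48), lie within *H19* on the other strand, and the strand setting of the counting is not given in the sources used here, so the 2 cannot be told apart with certainty.

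*Mpp3*, a membrane scaffold kinase homolog, and *Spsb1*, a ubiquitin ligase adaptor, also had opposite signs without passing in either genotype. *Mpp3* had 21.7 to 25.5 CPM in WT and 16.3 to 18.1 in WT + TAM, 5.78 to 6.202 in *Mtm1* KO and 7.19 to 10.4 in *Mtm1* KO + TAM, with an interaction of 0.90 (95% interval 0.49 to 1.31). *Spsb1* had an interaction of -0.997 (95% interval -1.47 to -0.52).

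A small set of genes was called for tamoxifen in both genotypes in edgeR, although most genes called in WT had the same sign in *Mtm1* KO. The 5 genes called in *Mtm1* KO were *Pgr*, *Flrt1*, *Aqp5*, *Dio3* and *Socs3*, and all but *Socs3* were also called in WT, in the same direction. *Flrt1*, *Aqp5* and *Dio3* are named here because they were called, not by the rule for named genes. *Pgr* (chromosome 9, 8899833 to 8968611, plus strand), the progesterone receptor and a textbook estrogen receptor target, had 0 counts over the 3 WT libraries and 1.79, 1.67, 1.81 and 1.66 CPM in WT + TAM, at least 43.5-fold higher with 3 counts over the group as the floor. In *Mtm1* KO it had 2 counts over 3 libraries, and 0.777, 0.883, 0.883 and 0.899 CPM in *Mtm1* KO + TAM. Its call in *Mtm1* KO was lost without *Mtm1* KO replicate 9 (adjusted p = 0.0534) or 10 (0.0597). Treated WT libraries were all above treated *Mtm1* KO libraries, but with untreated groups at or near 0 the fitted interaction has no firm size (unadjusted p = 0.0486).

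*Flrt1*, a leucine-rich repeat adhesion protein of the cell surface, had 1.39, 0.688 and 0.989 CPM in WT and 114, 93.8, 108 and 111 in WT + TAM. It had 0.631, 1.69 and 1.36 CPM in *Mtm1* KO and 43.3, 15.1, 10.03 and 45.8 in *Mtm1* KO + TAM. The effects were 6.69 (adjusted p = 3.48e-05) and 4.53 (adjusted p = 0.00237), and the interaction was -2.16 (95% interval -3.68 to -0.64) with an unadjusted p of 0.00827 and an adjusted p of 0.934. *Oxtr*, the oxytocin receptor, rose in WT, with 0.0430 to 0.237 CPM without and 5.98 to 8.64 with the drug (5.42, adjusted p = 0.000829). Its *Mtm1* KO values were 0.266 to 0.963 and 2.02 to 8.86 CPM (3.04, adjusted p = 0.0574), and the interaction was -2.38 (95% interval -4.25 to -0.50).

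*Gpx3*, the secreted glutathione peroxidase, had 141, 89.0 and 117 CPM in WT and 644, 535, 473 and 465 in WT + TAM. It had 174, 132 and 154 CPM in *Mtm1* KO and 341, 260.2, 341 and 271 in *Mtm1* KO + TAM, so treated and untreated libraries did not overlap in either genotype. It rose by 2.196 in WT (adjusted p = 3.48e-05), had an effect of 0.98 in *Mtm1* KO (adjusted p = 0.0549) and an interaction of -1.21 (95% interval -1.73 to -0.70), with an adjusted p of 0.270. *Fbp2*, the muscle form of fructose bisphosphatase, had the same form, with effects of 2.29 (adjusted p = 0.000832) and 1.35 (adjusted p = 0.0904) and an interaction of -0.94 (95% interval -1.74 to -0.14).

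*Dio3*, the deiodinase that inactivates thyroid hormone, was the 1 gene called in both genotypes whose effect was larger in *Mtm1* KO. It had 0.112 to 0.158 CPM in WT, 0.480 to 0.811 in WT + TAM, 0.166 to 0.323 in *Mtm1* KO and 1.63 to 3.73 in *Mtm1* KO + TAM. The effects were 2.22 (adjusted p = 0.0331) and 3.48 (adjusted p = 0.00237), and the interval of the interaction, -0.12 to 2.64, included 0. For the water channel *Aqp5* the effects were 5.90 and 5.78 and the interval of their difference was -4.94 to 4.70, too wide to tell them apart. That interval is rough, because the difference and the levels of the untreated libraries were near 0.

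**Figure D3:**
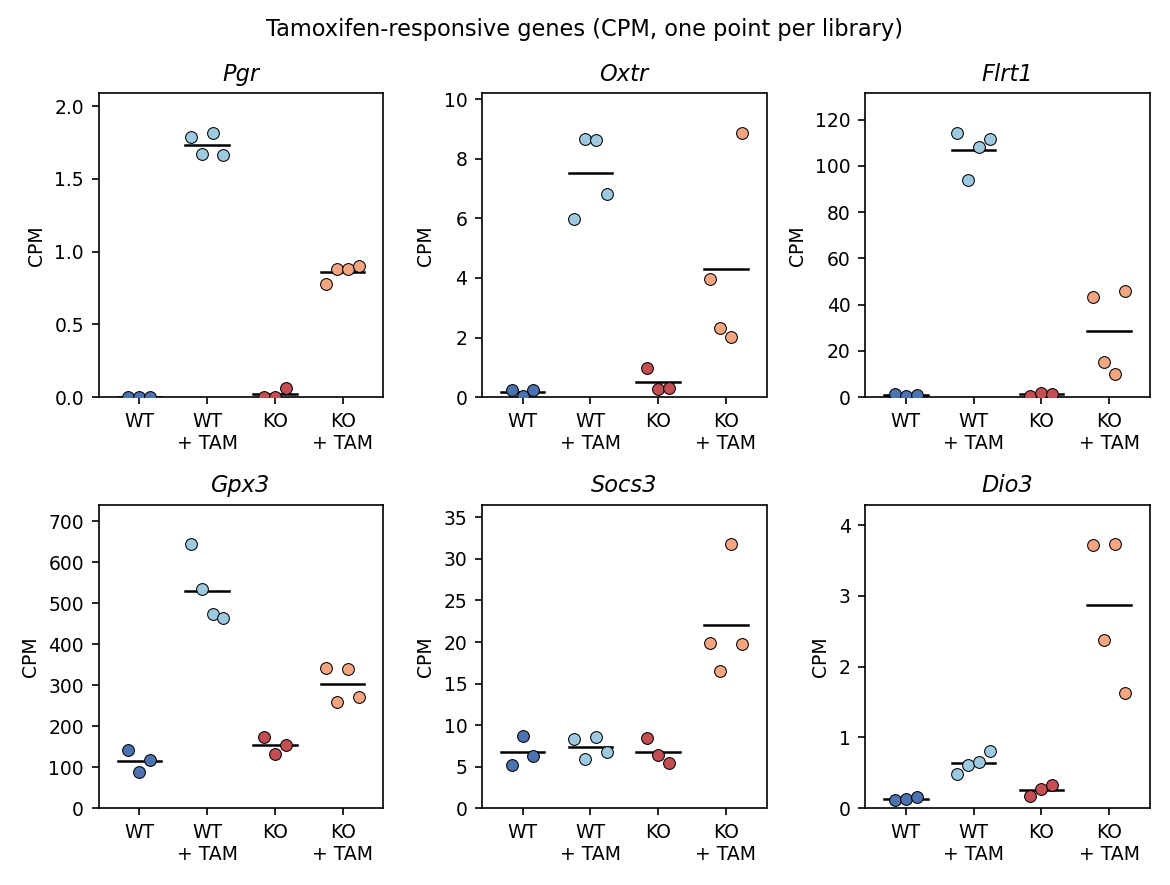
CPM of 6 tamoxifen-responsive genes in the 14 libraries, with one point per library, the group mean as a line and axes from 0. Treated libraries lie above untreated ones in both genotypes for *Pgr*, *Oxtr*, *Flrt1*, *Gpx3* and *Dio3*, and in *Mtm1* KO for *Socs3*.

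In the list of estrogen receptor targets, 15 of 20 genes were tested, and 1 had a positive (*Wisp2*) and 2 a negative interaction (*Oxtr* and *Pgr*) at an unadjusted p of at most 0.05, beside 2.08% and 2.19% of all genes. The median interaction was 0.17 beside 0.0094 for all genes, with medians of 0.18 for the WT effect and 0.43 for the *Mtm1* KO effect. Of the 15, 3 were called in WT, beside 0.939% of all genes, the third being *Xbp1*, a transcription factor of secretory cells (0.80, adjusted p = 0.0118), whose interaction was -0.29 (95% interval -0.71 to 0.12). *Greb1*, a growth regulator bound by the estrogen receptor, had effects of 1.78 in WT (adjusted p = 0.171) and 2.78 in *Mtm1* KO (adjusted p = 0.0574). Of 15 receptors and coregulators, only *Ppargc1a*, a coactivator of mitochondrial genes, had an unadjusted p of at most 0.05, with 0.80 (95% interval 0.19 to 1.41), and the median was -0.13. The estrogen receptor gene *Esr1* had 24.0 to 33.7 CPM in WT, 21.997 to 37.8 in WT + TAM, 14.7 to 19.6 in *Mtm1* KO and 12.4 to 18.7 in *Mtm1* KO + TAM, with an interaction of -0.18 (95% interval -0.77 to 0.40).

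Of the other classes of direct drug response, the 16 tested genes of xenobiotic metabolism had a median of -0.57, with 13 below 0 and 4 at an unadjusted p of at most 0.05, all negative, beside 2.19% of all genes. These were *Gstt1* (-0.91) and *Gstm1* (-0.70), which join glutathione to foreign compounds, the monooxygenase *Fmo5* (-0.51) and the epoxide hydrolase *Ephx1* (-0.68). None was called in either genotype, and the WT median was 0.28 against -0.07 in *Mtm1* KO. The summed level of the list was 467, 256 and 273 CPM in WT and 598, 574, 332 and 308 in WT + TAM. It was 390.0, 399.7 and 497 CPM in *Mtm1* KO and 404, 357, 344 and 307 in *Mtm1* KO + TAM. WT replicate 2 and WT + TAM replicates 5 and 6 were the highest of their groups, as they were for the fat cell markers described next, whose part in these values was not tested. *Gstm1* has 18.9% of its 50-base stretches in common with related genes. Cholesterol synthesis, whose enzymes include tamoxifen-binding ones, had a median of -0.14 over 23 genes and 0 at an unadjusted p of at most 0.05 in edgeR. Autophagy and lysosome genes had -0.056 over 28, with *Map1lc3a*, the LC3 gene of autophagosomes, at -0.63 (95% interval -1.19 to -0.07).

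The lists with the most negative medians were fat cell markers (-1.23, 15 of 15 below 0), fatty acid synthesis (-1.12, 16 of 17 below 0) and glucocorticoid response (-0.78, 15 of 16 below 0). Of all genes, 7557 of 15556 were below 0. In each of the 3 lists the WT median was positive, at 0.77, 0.94 and 0.86, and the *Mtm1* KO median was -0.42, 0.0016 and -0.04. At an unadjusted p of at most 0.05 there were 1, 4 and 5 members, all negative, beside 2.19% of all genes, and none of the 48 genes was called for the interaction.

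These medians rest on a few libraries. The summed level of the 15 fat cell markers was 2455, 326 and 608 CPM in WT replicates 2 to 4 and 3916, 2366, 937 and 935 in WT + TAM replicates 5 to 8. It was 2557, 1531 and 1235 in *Mtm1* KO and 1515, 1141, 1349 and 1865 in *Mtm1* KO + TAM. WT replicate 2 and WT + TAM replicates 5 and 6 were high and WT replicates 3 and 4 low. None of the 15 was at 0 in any group, and in bulk muscle fewer fat cells and less RNA per fat cell cannot be told apart. Their part in the values of lipid genes was not tested.

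*Fasn*, fatty acid synthase, had 494, 28.2 and 113 CPM in WT and 1682, 1440.4, 306 and 283 in WT + TAM. It had 1196, 520.4 and 156 CPM in *Mtm1* KO and 378, 299.5, 464 and 747 in *Mtm1* KO + TAM, so that WT replicate 2 was above WT + TAM replicates 7 and 8. Its interaction was -2.53 (95% interval -5.03 to -0.032), with an unadjusted p of 0.0474. *Acly*, which supplies cytosolic acetyl-CoA, and the elongase *Elovl6* had -2.01 and -2.10. *Srebf1*, the transcription factor of lipid synthesis, was the gene of this list called in WT, at 49.0 to 72.1 CPM and 101 to 118 with the drug (0.87, adjusted p = 0.0197), against 33.4 to 52.8 and 45.4 to 62.4 in the *Mtm1* KO groups, with an interaction of -0.57 (95% interval -1.06 to -0.08). Its call in WT was lost without WT replicate 3, WT replicate 4 (adjusted p = 0.111) or WT + TAM replicate 5. Without WT replicate 2 the list medians were -3.21 for fat cell markers and -2.17 for fatty acid synthesis.

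Among glucocorticoid responsive genes, *Ddit4*, an inhibitor of mTORC1, had 34.9, 36.3 and 32.1 CPM in WT and 248, 185, 31.9 and 37.2 in WT + TAM. It had 39.8, 48.0 and 147 CPM in *Mtm1* KO and 34.3, 32.6, 39.1 and 35.2 in *Mtm1* KO + TAM. WT + TAM replicates 5 and 6 and *Mtm1* KO replicate 11 were high and the other 11 libraries lay together, so that the interaction of -3.01 (95% interval -4.79 to -1.24) rests on 3 libraries. *Pik3r1*, a regulatory subunit of PI 3-kinase, the transcription factors *Cebpd* and *Klf9*, and *Lcn2* had interactions of -0.77, -1.26, -0.54 and -3.51. For *Lcn2*, 8.74 CPM in *Mtm1* KO replicate 10 stood against at most 1.34 in all other libraries. The receptor gene itself, *Nr3c1*, had -0.17.

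**Figure D4:**
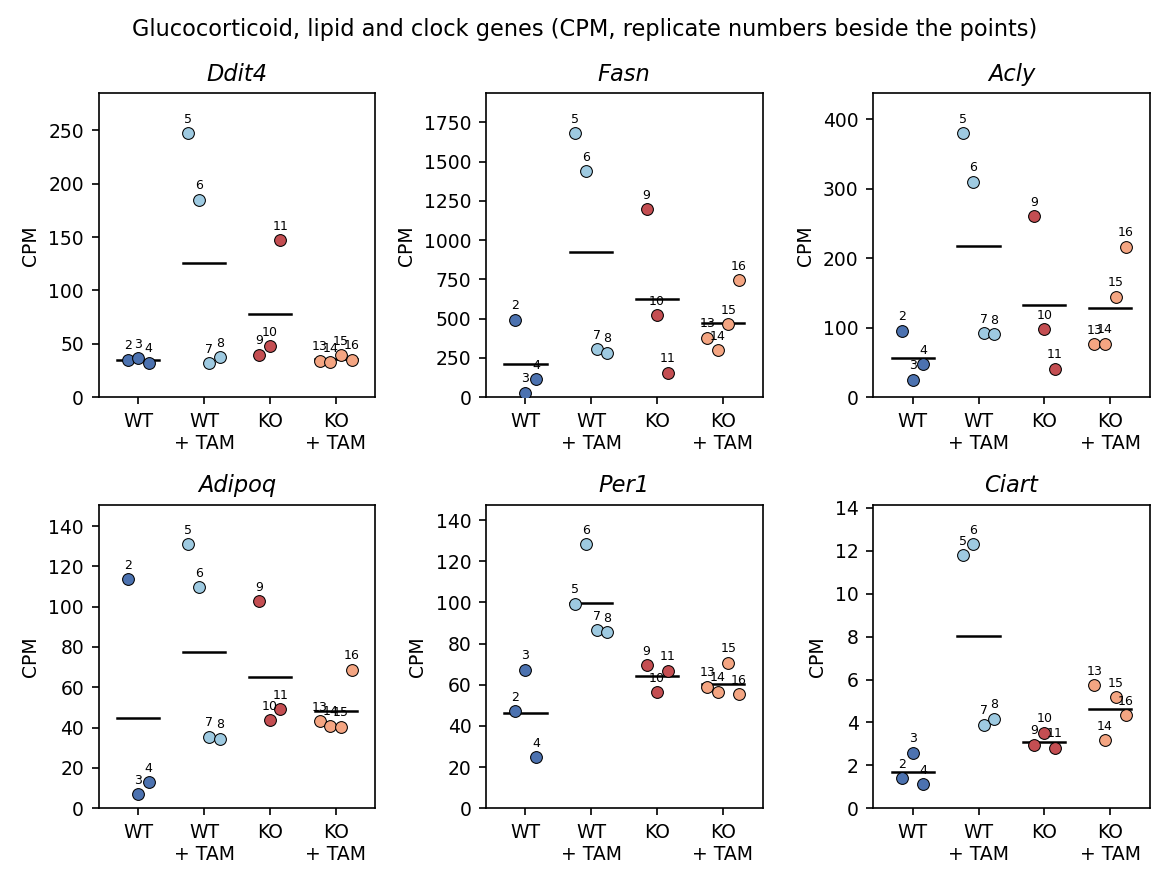
CPM of *Ddit4*, *Fasn*, *Acly*, *Adipoq*, *Per1* and *Ciart* in the 14 libraries, with one numbered point per library (its replicate number), the group mean as a line and axes from 0. WT + TAM replicates 5 and 6 lie above replicates 7 and 8 in all 6 panels, and 7 and 8 nearly coincide.

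Of 20 clock genes tested, 4 rose in WT, beside 0.939% of all genes, *Per1*, *Rora* and *Ciart* among them, and 0 were called in *Mtm1* KO in edgeR. The call of *Rora* was lost in 7 of 29 settings, with the highest adjusted p, 0.194, without WT replicate 4. The median effects of the list were 0.67 in WT and 0.34 in *Mtm1* KO. At an unadjusted p of at most 0.05, 4 had a negative interaction (*Per1*, *Ciart*, *Rora*, *Usp2*) and 1 a positive one (*Bhlhe41*), beside 2.19% and 2.08% of all genes. *Per1*, a repressor in the core loop, had 47.2, 67.3 and 24.8 CPM in WT and 99.3, 128, 86.6 and 85.4 in WT + TAM, and 56.4 to 69.4 and 55.4 to 70.8 in the *Mtm1* KO groups. Its effects were 1.11 (adjusted p = 0.0461, or 0.0662 with WT + TAM 7 and 8 summed) and -0.087 (adjusted p = 0.963), and its interaction was -1.19 (95% interval -1.92 to -0.47). The call in WT was lost in 17 of 29 settings, among them without WT replicate 4 (adjusted p = 0.117) and without each of 12 other libraries.

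*Ciart*, a repressor of the clock activators, had 1.39, 2.58 and 1.11 CPM in WT and 11.8, 12.3, 3.89 and 4.18 in WT + TAM, with replicates 5 and 6 well above 7 and 8. In *Mtm1* KO it had 2.96, 3.52 and 2.81 and in *Mtm1* KO + TAM 5.75, 3.17, 5.18 and 4.33 CPM. It rose in WT (2.25, adjusted p = 0.0200) and had 0.57 in *Mtm1* KO (adjusted p = 0.827), with an interaction of -1.68 (95% interval -2.90 to -0.46). The call in WT was lost in 7 of 29 settings, among them without WT replicate 2, WT replicate 4 (adjusted p = 0.119), WT + TAM replicate 5 or WT + TAM replicate 6. The activator *Arntl* had 0.42, with an effect of -0.87 in WT (adjusted p = 0.598). The time of day at which muscle was taken is not given in the sources used here.

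The 250 bases before the start of *Ciart* (RefSeq, GRCm38.p6, chr3:95882229-95882478, minus strand) are shown because *Ciart* had a larger effect in WT than *Per1* and *Rora*. Capitals mark 3 matches to CACGTG, the E-box that the clock activators bind. This motif is present in 6 of 22 promoters of the clock genes (27.3%) and in 6.02% of all 32851 promoters of this length, read on either strand.
Ciart: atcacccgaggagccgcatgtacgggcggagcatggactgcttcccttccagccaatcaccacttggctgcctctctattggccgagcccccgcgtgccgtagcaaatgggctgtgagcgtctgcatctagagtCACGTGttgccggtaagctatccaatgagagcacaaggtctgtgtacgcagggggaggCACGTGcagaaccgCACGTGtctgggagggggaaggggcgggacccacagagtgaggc

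FoxO and atrophy genes had a median of -0.28 over 19. *Foxo1* (-1.15), *Foxo3* (-0.71) and the stress sensor *Sesn1* (-0.57) were negative at an unadjusted p of at most 0.05, beside 2.19% of all genes. The summed level of the list was 2179 and 2111 CPM in *Mtm1* KO replicates 9 and 10 and 3021 in replicate 11. Without replicate 11 the median was -0.087, and *Foxo1*, *Foxo3* and *Sesn1* were at -0.71, -0.52 and -0.34. Without replicate 10 the median was -0.44. *Sesn1* was the one called in WT (0.70, adjusted p = 0.0303, or 0.0729 with WT + TAM 7 and 8 summed), a call lost in 8 of 29 settings, with the highest adjusted p, 0.158, without WT replicate 4. Fat oxidation genes of the PPAR list had -0.27 over 27, 24 of them below 0, where 7557 of all 15556 genes were. The uncoupling protein *Ucp3* was at -0.93 and the lipase inhibitor *Angptl4* at -1.26. The list median was -0.045 without *Mtm1* KO replicate 9, the highest of its group in summed level (6597 CPM against 4833 and 5025). It was -0.44 without WT replicate 2. Glycolysis and glycogen genes had 0.042 over 33, with *Fbp2* at -0.94 and *Pfkl* at -1.42. The remaining hormone and metabolism lists had medians of 0.12 (thyroid hormone, 10 genes), -0.0088 (GH, STAT5 and IGF1, 18), -0.14 (myostatin, activin and TGF-beta, 27) and 0.065 (NAD salvage, 14). Each had 1 or 2 members at an unadjusted p of at most 0.05, which were *Hr* (-0.86), *Igfbp3* (-0.55), *Irs1* (0.71), *Tgfbr3* (-0.45) and *Naprt1* (-0.73).

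Among stress lists, immediate early genes had a median of -0.31 over 26, with 21 below 0, where 7557 of all 15556 genes were. At an unadjusted p of at most 0.05 there were 5, all negative (*Egr2*, *Zfp36*, *Ctgf*, *Klf4* and *Fosl1*), beside 2.19% of all genes. *Ctgf*, a matricellular protein induced by stretch, had 47.3, 52.8 and 46.0 CPM in WT and 145, 89.9, 86.3 and 83.6 in WT + TAM. It had 219, 242 and 199.8 CPM in *Mtm1* KO and 275, 238, 314 and 334 in *Mtm1* KO + TAM, above all WT libraries in both groups. It rose in WT (1.05, adjusted p = 0.0113) and had 0.40 in *Mtm1* KO (adjusted p = 0.616), with an interaction of -0.66 (95% interval -1.19 to -0.12). The call in WT was lost without WT replicate 4 (adjusted p = 0.0704). *Egr2*, a transcription factor induced by activity, had 1.55 to 2.29 and 1.71 to 3.58 CPM in WT without and with the drug, and 8.17 to 16.05 and 4.33 to 8.99 in *Mtm1* KO, with an interaction of -1.29 (95% interval -2.22 to -0.35).

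The p53 targets had a median of 0.14 over 20, but members at an unadjusted p of at most 0.05 went both ways. *Gadd45b* was at 1.38 (95% interval 0.50 to 2.26), while *Cdkn1a*, the cell cycle inhibitor p21, was at -1.01 (95% interval -1.84 to -0.18), *Gadd45g* at -1.39 and *Trp53inp1* at -0.87. *Cdkn1a* had 29.4 to 38.1 CPM in WT and 42.5 to 66.8 in WT + TAM, and 317, 301 and 592 in *Mtm1* KO and 252, 548, 370.4 and 263 in *Mtm1* KO + TAM, which overlapped. NRF2 targets had a median of -0.14 over 28, with *Gpx3*, *Gstm2* (-0.68) and *Pgd* (-1.31) negative. The integrated stress response (-0.084, 27 genes) had *Cebpb* and the unfolded protein response of the endoplasmic reticulum (0.065, 20 genes) had *Sec61b* (0.55) at an unadjusted p of at most 0.05.

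Muscle structure lists had small medians. Z disc and costamere genes were at 0.15 over 38, with the Z disc genes *Synpo2l* at 0.45 and *Pdlim5* at 0.36, both positive at an unadjusted p of at most 0.05. Triad and calcium genes were at 0.12 over 29, with the calcium pump inhibitor *Pln* (0.79) and *Asph*, whose locus encodes junctin (0.48), positive. *Pln* is low in this muscle, at most 4.27 CPM, and has 56.2% of its 50-base stretches in common with overlapping genes. Neuromuscular junction and denervation genes were at -0.11 over 20. In that list *Chrng*, the fetal subunit of the acetylcholine receptor, had 0.525 to 0.860 CPM in WT, 0.408 to 1.44 in WT + TAM, 5.68, 5.51 and 13.3 in *Mtm1* KO and 3.55, 3.53, 3.16 and 2.597 in *Mtm1* KO + TAM. All treated *Mtm1* KO libraries were below the untreated ones, with an effect of -1.35 (adjusted p = 0.257) and an interaction of -1.88 (95% interval -3.12 to -0.65). The subunit *Chrnb1* was at 0.52.

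Embryonic and regenerating muscle genes, with *Myl4* and *H19* at opposite signs, had a median of -0.0053 over 20. Fast fiber genes were at 0.09 over 17 and slow fiber genes at 0.35 over 14, with 0 of either at an unadjusted p of at most 0.05 in edgeR. The slow fiber value ran from -0.33 to 1.47 over the alternatives, so it has no direction. Phosphoinositide and dynamin genes, grouped by function, were at -0.047 over 30, with 0 at an unadjusted p of at most 0.05.

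The genes central to the disease had intervals that included 0. *Dnm2*, the membrane-fission GTPase dynamin 2, had 44.0 to 47.1 CPM in WT, 40.0 to 45.6 in WT + TAM, 50.7 to 56.1 in *Mtm1* KO and 47.8 to 52.0 in *Mtm1* KO + TAM. Its interaction was -0.05 (95% interval -0.33 to 0.22), so a difference of effect beyond that interval was not seen for its transcript. *Pik3c2b*, a lipid kinase that makes phosphoinositides MTM1 can remove, had an interaction of 0.49 (95% interval -0.16 to 1.14), and *Mtm1* itself had 0.063 (95% interval -0.50 to 0.62).

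Extracellular matrix genes had a median of 0.21 over 33, with 27 above 0 and 4 at an unadjusted p of at most 0.05, all positive, beside 2.08% of all genes. These were elastin *Eln* (0.89), the collagens *Col3a1* (0.78) and *Col5a2* (0.71), and the crosslinking enzyme *Lox* (0.89). *Col3a1* had 2206, 2339.8 and 2054 CPM in WT and 1099, 1101, 1790.4 and 1774 in WT + TAM, with replicates 5 and 6 the lowest of all. It had 1964, 1497 and 1381 CPM in *Mtm1* KO and 1509, 1618, 2109.9 and 2031 in *Mtm1* KO + TAM. Fibroblast markers had a median of 0.041 over 12, with 0 at an unadjusted p of at most 0.05, and their summed level was 1756 to 2142 CPM in WT, 1649 to 2389 in WT + TAM, 2389 to 3027 in *Mtm1* KO and 2367 to 2724 in *Mtm1* KO + TAM. Their part in the matrix values was not tested.

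Tendon, cartilage and bone markers had a median of -0.51 over 12, which rests on 1 library. *Mtm1* KO replicate 10 held 141 CPM of the cartilage collagen *Col2a1*, against 1.83 to 9.07 in the other 13 libraries, and 17.7 CPM of the bone gene *Ibsp*, against at most 1.23. Without this library the list median was 0.20 and the interaction of *Col2a1* was 0.032 in place of -4.27. Genes of dividing cells (0.36, 24 genes) also depended on it, with 1.05 when it was left out and 0.02 without *Mtm1* KO replicate 11.

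Other cell types gave medians of 0.11 (macrophages and leukocytes, 21 genes, with the chemokine *Ccl2* at 2.11), 0.062 (endothelial, 15), 0.088 (Schwann cells, 12) and -0.12 (red blood cells, 6). Complement and coagulation genes were at 0.21 over 17, with *Cd55*, which protects cells from complement, at 0.73 (95% interval 0.15 to 1.30). Imprinted genes were at 0.10 over 20, with *H19* the one at an unadjusted p of at most 0.05, and sex-linked genes at 0.069 over 4.

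Lists of housekeeping machinery lay near 0. The medians were -0.034 for 66 cytosolic ribosome genes, -0.026 for 15 genes of the mitochondrial genome, 0.078 for 72 nuclear genes of the respiratory chain, 0.074 for 33 proteasome genes and -0.062 for 22 heat shock proteins. The interferon list was at -0.12 over 25. Of these 6 lists, the respiratory chain alone had a member at an unadjusted p of at most 0.05, cytochrome c (*Cycs*, 0.46), for which 26.1% of the 50-base stretches occur also in other genes, pseudogenes among them. In all, 34 of 46 lists had a median within 0.2 of 0, 8 were lower and 4 higher, and 15 had no member at an unadjusted p of at most 0.05.

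**Figure D5:**
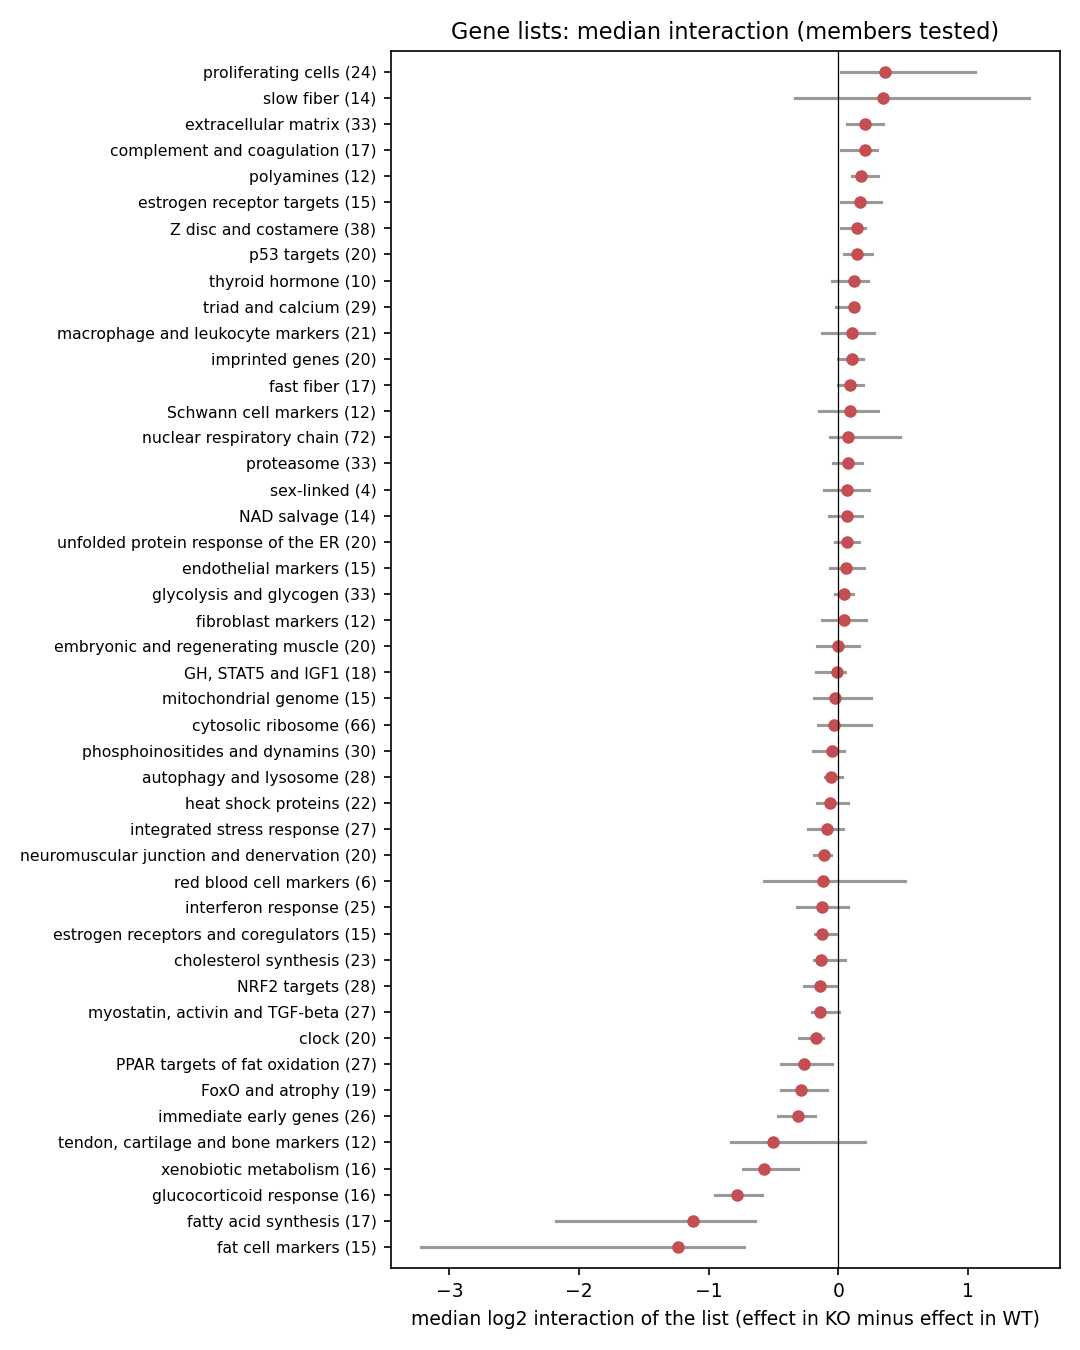
Median log2 interaction of the genes tested in each of the 46 lists (x axis, effect in *Mtm1* KO minus effect in WT), with the number of genes tested in parentheses. Red points are the medians from the 14 libraries and gray bars run from the lowest to the highest median over all alternatives. Fat cell markers, fatty acid synthesis, glucocorticoid response and xenobiotic metabolism stay below 0 under each, and 34 of the 46 medians lie within 0.2 of 0.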

How the data were processed

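RNA of quadriceps was sequenced from TruSeq libraries. The authors aligned the reads in 2 steps with STAR, and HTSeq gave their counts per gene. The submitters' processing notes name STAR 2.5.0c, Cufflinks 2.2.1, bcl2fastq 2.17 and GRCm38. Not given in the sources used here were the version of HTSeq, the annotation, the handling of strand and of multiply placed reads, and the gene lengths. The deposited tables hold raw counts per gene and, separately, RPKM values made by the authors, each with 16 columns, all of which could be matched to a sample. Counting places reads of near-identical genes and overlapping genes uncertainly.

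The counts of 14 libraries were fitted in R 4.3.3 with edgeR 4.0.16 (TMM factors, quasi-likelihood test) in a model with 1 term per group. Genes passed filterByExpr with a minimum count of 10 and a minimum total of 15. The 3 contrasts were the tamoxifen effect in each genotype and their difference, with Benjamini-Hochberg adjustment over all genes tested and a threshold of 0.05. CPM values use TMM factors over the 14 libraries, except *Mtm1* in WT replicate 1 and *Ckm*, which come from the scaling of 16. WT replicate 1 and *Mtm1* KO replicate 12 were left out, as in the comparison asked for. Alternatives were DESeq2 1.42.0, limma 3.58.1 on log2(RPKM + 0.1) and log2(RPKM + 1), other scalings, filters and dispersions, an adjusted threshold of 0.01, inclusion of the omitted libraries, and leaving out 1 library at a time. The pipeline was tested on simulated counts.

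The text names *Mtm1*, *Esr1*, *Pgr*, *Dnm2* and *Pik3c2b*, the 25 genes with the lowest interaction p, and per list the 3 members with the lowest p among those at an unadjusted p of at most 0.05. Other genes were named after their values were seen, either because they were called within a genotype or to describe a list. The contrast, the gene lists and this rule were chosen with earlier results of these data known. Overlap between genes was computed as the share of 50-base stretches of a gene's transcripts that also occur in transcripts of other genes. Promoter sequences are from RefSeq. A result on 1 gene is not reported here.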

Additional observations from a re-analysis of the deposited data

Results flagged for a closer look

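Among 162 sets of 4 treated libraries, 10 held a library that lay far from its 3 neighbours by Dixon's criterion, where chance marks about 5%, or 8.1. In WT + TAM, *Synpo2l* was at 241 CPM in replicate 6 against 195 to 198 in the others, *Pik3r1* at 123 in replicate 6 against 61.8 to 65.6, and *Ctgf* at 145 in replicate 5 against 83.6 to 89.9. In *Mtm1* KO + TAM, replicate 14 had the high value of *Foxo1* (66.6 CPM against 41.4 to 43.6) and *Gm27786* (11.5 against 5.71 to 6.67) and the low value of *Zfp36* (23.1 against 38.5 to 41.2). In the same group, replicate 13 stood apart for *Inf2* (21.7 CPM against 19.03 to 19.11) and *Pgr* (0.777 against 0.883 to 0.899). Replicate 15 stood apart for *Mpp3* (10.4 CPM against 7.19 to 7.71) and replicate 16 for *Ibsp* (1.23 CPM, with 0 in the others).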

How the results depend on the processing

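The count of interaction calls, 0 in edgeR, was 22 with DESeq2, 17 with DESeq2 when WT + TAM replicates 7 and 8 were summed, and 1 each with no filter, with limma on log2(RPKM + 0.1) and with limma on log2(RPKM + 1). It ran from 0 to 1 when a library was left out. The 5 calls in *Mtm1* KO became 2 at an adjusted p of at most 0.01, 115 with DESeq2, 48 with no filter, 2 with at least 10 counts in every library, 13 and 3 with the limma settings, 8 with 16 libraries, 3 with WT replicate 1 added, 23 with *Mtm1* KO replicate 12 added, 11 with robust dispersion, 109 with DESeq2 and the pair summed, and 3 to 10 with a library left out (10 without WT replicate 3, 9 without *Mtm1* KO + TAM replicate 15, 8 and 3 without *Mtm1* KO replicates 11 and 10). The 146 calls in WT became 39 at 0.01, 343 with DESeq2, 97 with the pair summed, of which 94 were shared, 313 with DESeq2 and the pair summed, and 63 to 154 with a library left out (63 without WT replicate 4, 74 without WT + TAM replicate 5, 90 without WT replicate 3 or WT + TAM replicate 6, 95 and 94 without WT + TAM replicates 7 and 8). Summing the pair was chosen after seeing the data. The cause of these shifts was not tested.

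Of 81 named genes, 4 had an interaction that changed sign. *Col2a1* ran from -4.83 to 0.032 and *Ibsp* from -10.37 to 0.56 with a library left out, both positive without *Mtm1* KO replicate 10 alone, and *Dnm2* at 0.015 with 16 libraries and 0.048 with WT replicate 1 added. *Mtm1* ran up to 0.21 with a library left out and was at -0.012 and -0.023 with limma, -0.34 with 16 libraries, -0.22 and -0.049 with WT replicate 1 or *Mtm1* KO replicate 12 added, and -0.021, -0.015, -0.002 and -0.020 without WT + TAM replicate 5, *Mtm1* KO replicate 10 or *Mtm1* KO + TAM replicates 14 and 16. Of 27 named calls in WT, 12 held in all settings and 15 did not, and 114 values in WT and 10 in *Mtm1* KO kept their direction but no longer passed. List medians of the interaction moved in 20 of 1288 values by more than the spread of the list's level between libraries of a group. Where that spread was wide, a median could change sign without being counted as moved. The mitochondrial genome list changed sign so in 10 of 28 settings and the slow fiber list in 3. The study describes the sequenced samples as coming from littermates, but the sources used here do not say which libraries share a litter. No paired analysis was therefore possible. With 3 or 4 libraries a group, differences of effect below the interval of a gene were not detectable, and larger ones could also fail the adjusted test.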
